A study of Homo sapiens with 16 samples.

Results

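Solute carriers (SLC proteins) are membrane transporters that move ions, sugars, amino acids, organic anions and cations across cell membranes. The genes described here are those of the 15 SLC families that carry most of the transport of the renal tubule, namely SLC1A to SLC7A, SLC9A, SLC12A, SLC13A, SLC16A, SLC17A, SLC22A, SLC34A and SLC47A. A gene was a member when its symbol in the single-cell data began with one of these family names and ended in a number, and when its Ensembl identifier matched a row of at least 1 bulk table. Of 36601 genes in the single-cell data, 164 symbols met the first condition and 145 met both. The members were 136 carriers, 7 antisense RNAs and 2 scaffold proteins that keep the older names SLC9A3R1 and SLC9A3R2 (now NHERF1 and NHERF2). In all, 22498 genes of the single-cell data matched a bulk table, of which the members were a small part.

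The samples were kidney organoids grown from UM77-2, 1 human embryonic stem cell line, so that every group shares 1 genetic background. Bulk RNA came from isolated spheroids, the round organoids picked out of the culture. A first set held 1 library each of D21, D25 and D29, the days of culture, and a second set held 2 libraries of each day. A TNFα series held 4 libraries collected on day 25, after 5 ng/ml of the inflammatory cytokine TNFα for 24 h or 48 h or after vehicle control (VC) for the same times, 1 library each. Single-cell RNA came from whole wells of D24 cultures, dissociated after 24 h of TNFα or of vehicle, with 1 library per condition, and a further single-cell sample was not analysed here. Members with a row numbered 111 in the first set, 144 in the second set and 128 in the TNFα series, and 110 had a row in all 3. Nothing in the labels says that libraries of a group came from separate differentiations, so p-values measure only the spread between these samples.

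In the proximal tubule, sodium-driven carriers of the brush border, the apical membrane of these cells, take glucose, phosphate, amino acids and carboxylates back from the filtrate, on a gradient kept by the sodium pump. Organic anion and cation carriers of the SLC22A and SLC47A families secrete drugs and waste products. The thick ascending limb and the distal tubule use the sodium chloride cotransporters SLC12A1 and SLC12A3. Other members of the same families are found in most cells, where they import glucose, lactate or amino acids, or in neurons, where they load synaptic vesicles or clear transmitters. The members were therefore read by role, in lists of proximal tubule carriers (36 genes, 31 of them members), distal nephron carriers (7 genes, 4 members), neural carriers (18), nutrient uptake carriers (10) and carriers for pH and cell volume (13). A further 69 members were in no list.

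Bulk library totals ran from 19073609 to 59246286 reads. In the single-cell data, 11906 cells of the VC library passed a minimum of 500 genes, with a median of 6358.5 unique molecular identifiers (UMIs, counts of captured RNA molecules), and 23160 cells of the TNFα library passed, with a median of 2599 UMIs. The libraries shared 82 cell barcodes. The cells fell into 15 clusters built without the members, of which 10 were named from marker genes as 7 classes and 5 were left unnamed (25.2% of VC cells and 15.3% of TNFα cells). Proximal tubule-like cells formed 1 cluster of 1251 VC and 3611 TNFα cells, with 10 of 11 proximal tubule markers raised, among them LRP2, CUBN and HNF4A. The same cluster also had 5 markers of the distal tubule or loop and 4 of the early nephron, so its values may mix tubule segments. UMOD, a defining marker of the thick ascending limb, had no UMI in these cells of either library.

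In the VC library, levels of the listed proximal tubule carriers were compared between the named classes. Of 24 listed genes with at least 20 UMIs over the whole library, 16 had their highest level in proximal tubule-like cells. This class held 18.3% of the VC UMIs, the most of any named class. A gene can also pass the minimum through the class where it is high. No matching share over all genes is given, so the count does not show whether 16 is many. Levels are in CPM, the count of a gene scaled to the library total or, in single cells, to all UMIs of its class. Their exact Poisson intervals at 95% cover counting error only, and with 1 VC library no test was made. SLC34A1, the sodium phosphate cotransporter of the proximal brush border, was at 49.3 CPM (46.2 to 52.6) in proximal tubule-like cells and at 5.22 CPM in muscle-like cells, the next class. It lay between 0.22 and 0.98 CPM in the other named classes. SLC4A4, which returns bicarbonate to the blood side of the cell, was at 38.0 CPM (35.2 to 40.9), against 7.66 CPM in the next class. SLC3A1, the heavy chain of the cystine carrier, reached 35.6 CPM (32.9 to 38.4) against 3.83 CPM.

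Carriers of smaller level showed the same distribution. SLC6A13, a carrier of GABA and taurine, was at 22.5 CPM in proximal tubule-like cells, SLC5A8, a sodium-coupled monocarboxylate carrier, at 12.9 CPM, and SLC13A1, the sodium sulfate cotransporter, at 10.5 CPM. SLC1A1, a glutamate and aspartate carrier, was at 9.36 CPM, SLC34A3, a second renal phosphate carrier, at 8.06 CPM and SLC17A1, an organic anion and urate carrier, at 3.05 CPM. Outside the list, SLC16A4, an orphan of the monocarboxylate family, reached 22.3 CPM, SLC16A12, a creatine carrier, 5.66 CPM, and SLC34A2, a phosphate carrier best known from lung, 3.32 CPM. SLC12A1, the target of loop diuretics in the thick ascending limb, was also highest in this class, at 7.62 CPM (6.41 to 8.99), and at no more than 0.35 CPM in every other named class.

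The 8 listed genes that were highest elsewhere were SLC13A3, SLC16A9, SLC47A1, SLC5A12, SLC5A2, SLC7A7, SLC7A8 and SLC9A3. SLC7A8, a light chain for neutral amino acids on the basolateral membrane, was at 101 CPM (95.7 to 106) in podocyte-like cells and at 20.6 CPM (18.6 to 22.8) in proximal tubule-like cells. SLC5A2 (SGLT2), the main glucose carrier of the early proximal tubule, was at 1.83 CPM in podocyte-like cells and at 0.82 CPM (0.46 to 1.35, 15 UMIs) in proximal tubule-like cells. SLC9A3, the apical sodium proton exchanger, was near 1 CPM or below in every class and did not mark the tubule cells. SLC13A3, a dicarboxylate carrier, was at 4.27 CPM in neuronal-like and at 3.16 CPM in proximal tubule-like cells, with an interval of 2.40 to 4.08. SLC47A1, which exports organic cations into the urine, was at 5.38 CPM in neural progenitor or glial-like and at 3.81 CPM in proximal tubule-like cells, and SLC7A7, a cationic amino acid exchanger, was at 11.1 CPM in muscle-like and at 6.26 CPM in proximal tubule-like cells.

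Several textbook carriers were close to or under the limit of detection. SLC22A6 and SLC22A8, the organic anion carriers OAT1 and OAT3, had 15 and 35 UMIs in proximal tubule-like VC cells (0.82 and 1.91 CPM). SLC22A2, the organic cation carrier OCT2, and SLC2A2, the basolateral glucose carrier, had 9 and 8 UMIs there (0.49 and 0.44 CPM). SLC17A3, a urate carrier with no bulk row, had 8 UMIs in the whole VC library, all of them in proximal tubule-like cells. SLC5A1 (SGLT1), the glucose carrier of the late proximal tubule, had 2 UMIs in the VC library and SLC12A3, the thiazide-sensitive carrier of the distal convoluted tubule, had 1 UMI. Neither SLC5A1 nor SLC12A3 had a UMI in proximal tubule-like cells, where 3 UMIs would be 0.16 CPM. The 19 symbols with no matching bulk row, SLC5A1, SLC12A3 and SLC17A3 among them, had between 0 and 32 UMIs in the VC library.

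**Figure D1:**
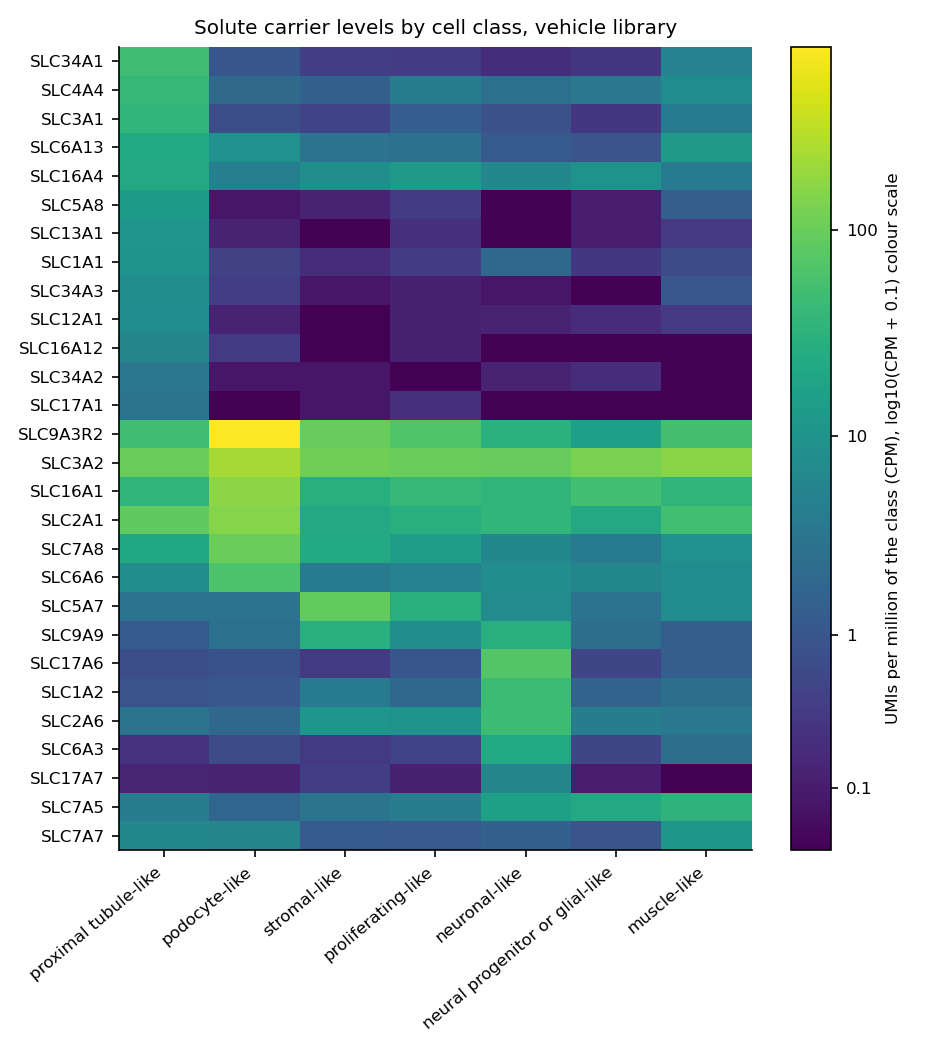
Levels of 28 members (rows) in the 7 named cell classes of the VC library (columns), as CPM of the class on a log colour scale with 0.1 added. SLC34A1 to SLC17A1 are highest in the proximal tubule-like column, SLC9A3R2 to SLC6A6 in the podocyte-like column, SLC5A7 and SLC9A9 in the stromal-like column, SLC17A6 to SLC17A7 in the neuronal-like column, and SLC7A5 and SLC7A7 in the muscle-like column.

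Among all 103 members with at least 50 UMIs in the VC library, 28 were highest in proximal tubule-like, 25 in neuronal-like, 18 in podocyte-like, 16 in stromal-like, 7 in neural progenitor or glial-like, 6 in muscle-like and 3 in proliferating-like cells. The highest level was at least 2 times the next in 17 of the 28 and in 10 of the 25, with levels under 3 UMIs counted as 3. These counts come from classes of unequal depth, since proximal tubule-like cells held 18.3% of the UMIs and muscle-like cells 2.85%. Here too, a gene can pass the minimum through the class where it is high, and no share over all genes is given.

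Podocyte-like cells had the highest levels of several carriers that import nutrients. SLC2A1 (GLUT1) was at 151 CPM (145 to 157) in podocyte-like cells and at 85.4 CPM (81.2 to 89.8) in proximal tubule-like cells. SLC16A1, the lactate and pyruvate carrier MCT1, was at 163 CPM (156 to 170) there and at no more than 50.3 CPM elsewhere. SLC6A6, the taurine carrier, was at 60.5 CPM against 8.17 CPM in the next class. SLC3A2, the heavy chain shared by amino acid exchangers, was lowest in neuronal-like cells and reached 231.5 CPM in podocyte-like cells. SLC9A3R2, a scaffold that podocytes use to anchor podocalyxin, was at 767 CPM (753 to 782) in podocyte-like cells and at 49.2 CPM in proximal tubule-like cells.

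The classes outside the nephron had their own carriers. SLC17A6, which loads glutamate into synaptic vesicles, was at 68.9 CPM (64.6 to 73.5) in neuronal-like cells and at no more than 1.39 CPM in the other classes. SLC1A2, a glutamate reuptake carrier, was at 46.6 CPM there, SLC6A3, the dopamine carrier, at 22.7 CPM, and SLC17A7, a second vesicular glutamate carrier, at 5.81 CPM. SLC5A7, the high-affinity choline carrier, was at 88.9 CPM (84.0 to 93.9) in stromal-like and at 7.43 CPM in neuronal-like cells, with 27.0 CPM in proliferating-like cells. SLC9A9, an endosomal sodium proton exchanger, was at 29.1 CPM in stromal-like and 28.5 CPM in neuronal-like cells, with intervals that overlap. SLC22A10 and SLC9A5 were also highest in stromal-like cells, at 2.58 and 4.01 CPM.

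Few members stood out in the other classes. SLC7A5, a carrier of large neutral amino acids, was at 33.1 CPM in muscle-like cells, and SLC7A11, the cystine glutamate exchanger, at 8.36 CPM (5.36 to 12.4). SLC7A3 and SLC2A12 were highest in proliferating-like cells, at 5.45 and 5.20 CPM. SLC1A3, a glial glutamate carrier, was at 5.16 CPM in neural progenitor or glial-like cells. SLC12A5, a potassium chloride cotransporter known from neurons, lay between 7.31 and 15.9 CPM in all 7 classes, with 9.71 CPM in neuronal-like and 9.96 CPM in proximal tubule-like cells.

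In bulk RNA, levels are given as log2(CPM + 1). Folds in bulk are ratios of CPM + 1, so they are nearer to 1 than ratios of CPM, most of all at low levels. Compared per kilobase of exon, the highest members at D21 of the second set were SLC9A3R1 (94.7 CPM per kilobase), SLC2A1 (79.2) and SLC16A1 (70.05). SLC34A1 ranked 7 of the members at 25.2 CPM per kilobase, and in the VC 24 h library it ranked 3 at 52.3. SLC9A3-AS1, an antisense RNA of the SLC9A3 locus, was at 35.5 CPM per kilobase at D21, while SLC9A3 itself was at 1.67 and 1.54 on the log2 scale. SLC9A3 and its antisense partner have separate counts in bulk. No source used here says that counting used strand, so how reads from any stretch shared by both were counted is not known. This limit holds for all bulk values of SLC9A3 below.

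The comparison of D29 with D21 asks how tubule transport genes change as organoids age in culture. In the second set, 66 of 144 members passed at an adjusted p under 0.05 (limma, Benjamini-Hochberg over 27650 genes), against 18.4% of all genes, and 26 rose (10.0% of all genes) while 40 fell (8.33%). The median log2 difference was -0.09 over the members and -0.02 over all genes. Of 57 called members with a row in the first set, 42 differed there in the same direction. The matching share over all called genes is not given here, so this count and those by list do not show whether such agreement is high or low for these data. Leaving out either D21 library leaves 1 library for that day, and fewer members and fewer of all genes then passed. The members that fell included SLC5A8, SLC16A1, SLC34A2, SLC4A11, SLC12A1 and SLC34A1, and those that rose included SLC17A6, SLC6A17 and SLC9A9.

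Of 30 proximal tubule carriers tested, 11 fell, 1 rose and 18 did not pass, with a median difference of -0.33. In the first set the median of the 22 listed genes was -0.12, and 6 of 11 called ones kept their direction. By step, the only one of the 30 called between D21 and D25 was SLC5A12, a lactate carrier of the brush border, which rose, while between D25 and D29 7 fell and none rose, with a median of -0.52. The steps share their D25 libraries, and the difference between them was not tested. Over all members, 18 passed in the first step, with 9 that rose and 9 that fell, against 5.37% of all genes (3.39% higher, 1.99% lower). In the second step 16 passed, with 2 that rose and 14 that fell, against 2.08% of all genes (1.25% higher, 0.825% lower). With each library centred on its median, the counts were 28 (10 rose, 18 fell) and 31 (10 rose, 21 fell). Of all 27650 genes, 2252 and 1233 then passed. Leaving out either D25 library leaves 1 library for that day, and the second-step calls were then lost for members and all other genes alike. Summed over the list, proximal tubule carriers stood at 608 and 512 CPM at D21, at 622 and 625 CPM at D25 and at 389 and 345 CPM at D29. In the first set the sums were 375, 370 and 331 CPM. These sums weigh genes by their level, so SLC34A1 counts for more than carriers near the floor, and no sum was made without it.

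All 3 phosphate carriers fell in the second set. SLC34A1 stood at 7.14 and 6.48 at D21, 7.44 and 7.42 at D25 and 4.99 and 5.04 at D29. The D29 libraries were below all the others and both D25 libraries were above both D21 libraries. The fall from D21 to D29 was 1.80 ± 0.18 (SE; limma, adjusted p = 0.00053), to 0.29 of D21 in CPM + 1. In the first set, SLC34A1 was at 5.27, 6.30 and 5.74 for D21, D25 and D29. There D29 was above D21 but, as in the second set, below D25. A test of the difference between sets was not run. SLC34A3 was at 1.81 and 1.71 at D21 and at 1.10 and 1.07 at D29, a fall of 0.68 (limma, adjusted p = 0.024). It no longer passed without any one of the D21 and D29 libraries (limma, adjusted p = 0.0605 to 0.129), and in the first set D29 was above D21 by 0.46. SLC34A2 fell by 2.32 ± 0.17 (limma, adjusted p = 0.000169), from 3.71 and 3.42 to 1.18 and 1.30, and in the first set it went from 2.56 to 1.59.

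Among carboxylate, sulfate and organic anion carriers, SLC5A8 was at 4.38 and 3.85 at D21, 3.52 and 3.69 at D25 and 1.83 and 1.66 at D29. Each D29 value was below every earlier one, and the fall was 2.37 ± 0.19 (limma, adjusted p = 0.000224), to 0.19 of D21 in CPM + 1. The first set gave 2.87, 2.48 and 1.16. SLC13A1 was at 2.85 and 2.63, then 2.71 and 2.57, then 1.60 and 1.10, a fall of 1.39 ± 0.20 (limma, adjusted p = 0.00271), with 2.23, 1.55 and 0.97 in the first set. SLC17A1 fell by 1.27 ± 0.20 (limma, adjusted p = 0.00357), from 3.77 and 3.32 to 2.46 and 2.08. SLC22A6 was at 1.61 and 1.19 at D21 and near the floor at D29, at 0.16 and 0.08, a fall of 1.28 ± 0.16 (limma, adjusted p = 0.00139). SLC22A8 fell by 0.89 (limma, adjusted p = 0.00585) in the second set, while in the first set D29 was above D21 by 0.12.

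**Figure D2:**
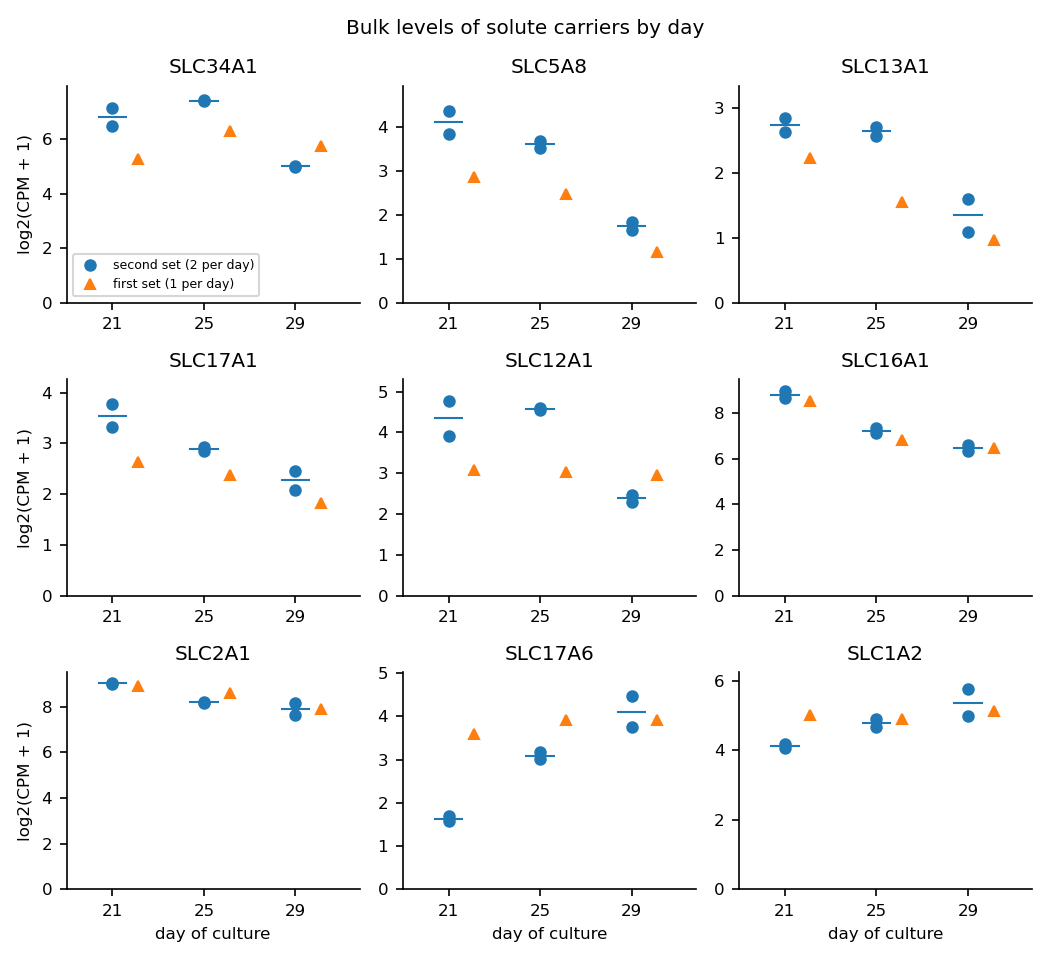
Bulk levels, as log2(CPM + 1), of 9 members by day of culture. Circles are the 2 libraries per day of the second set with their mean as a line, and triangles are the single libraries of the first set. SLC34A1 falls between D25 and D29 in both sets, but its D29 level is below D21 in the circles and above D21 in the triangles. SLC5A8, SLC13A1, SLC17A1, SLC16A1 and SLC2A1 are lowest at D29 in both sets, and SLC17A6 is lowest at D21 in both.

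The carriers of the proximal list named next had differences near that of SLC34A3 or smaller, and groups by substrate were not compared. SLC4A4 was at 6.34 and 5.90 at D21 and at 5.49 and 5.42 at D29, a fall of 0.66 ± 0.13 (limma, adjusted p = 0.0106). SLC6A13 fell by 0.67 ± 0.09 (limma, adjusted p = 0.00186). SLC9A3 fell by 0.54 (limma, adjusted p = 0.033) but did not pass in DESeq2 (adjusted p = 0.133). The SLC9A3 call was also lost without any one of the 6 libraries, where the difference was -0.48 to -0.61. SLC3A1 did not pass, at a difference of -0.37 (limma, adjusted p = 0.127), but passed without D29 replicate 1 (limma, adjusted p = 0.0264) and with median centring (limma, adjusted p = 0.0228). SLC7A8, at -0.36 (limma, adjusted p = 0.0578), passed without D29 replicate 1 (limma, adjusted p = 0.00244) and with median centring, a mean CPM of at least 1, the replicate block or without the added 1 (limma, adjusted p = 0.0131 to 0.0476).

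The remaining named carriers of the proximal tubule did not pass at the main settings. SLC7A9, the light chain of SLC3A1, differed by -0.37, SLC7A7 by -0.25, SLC1A1 by -0.24, SLC47A1 by -0.13 and SLC5A12 by -0.01 between D29 and D21. SLC5A2 stood at 1.57 and 1.87 at D21 and at 1.18 and 1.34 at D29 (difference -0.46, limma, adjusted p = 0.0996), and passed with median centring (limma, adjusted p = 0.0397). SLC13A3 differed by 0.25, and SLC22A2 by -0.31 at levels of 0.89 and below. SLC2A2, at 0.86 or below in every library, differed by 0.39 (limma, adjusted p = 0.0705) and passed without D29 replicate 1 (limma, adjusted p = 0.0288). The 1 listed gene that rose was SLC16A9, a carnitine carrier, by 0.53 (limma, adjusted p = 0.0113).

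Of 4 distal nephron carriers, SLC12A1 fell, SLC4A8 rose and 2 did not pass. SLC12A1 was at 4.78 and 3.91 at D21, 4.55 and 4.59 at D25 and 2.31 and 2.48 at D29, a fall of 1.95 ± 0.25 (limma, adjusted p = 0.00144). In the first set it was nearly level, at 3.08, 3.04 and 2.95. SLC4A8, a bicarbonate carrier that neurons also use, rose by 1.01 ± 0.15 (limma, adjusted p = 0.00304). SLC5A11, a myo-inositol carrier in no list, fell by 0.64 (limma, adjusted p = 0.0331) but did not pass in DESeq2 (adjusted p = 0.056). In limma it passed only when both D21 libraries, both D25 libraries and D29 replicate 1 were in the fit. Without any 1 of them its difference was -0.46 to -0.81. SLC4A11, a borate and water carrier best known from the cornea, fell by 2.13 ± 0.18 (limma, adjusted p = 0.000277), from 3.01 and 3.13 to 0.80 and 1.07, and from 2.33 to 1.33 in the first set. SLC16A4 rose by 0.85 (limma, adjusted p = 0.0332) but did not pass without a variance trend (limma, adjusted p = 0.0599). When a library was left out, its call held only without D21 replicate 1, and without any one of the others its difference was 0.47 to 0.97.

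Of 10 nutrient uptake carriers 6 fell, 1 rose (SLC1A4) and 3 did not pass, with a median of -0.44, and all 7 called genes had the same direction in the first set, where the median was -0.55. SLC16A1 was at 8.65 and 8.93 at D21, 7.32 and 7.13 at D25 and 6.60 and 6.31 at D29. The 3 days did not overlap, the fall was 2.34 ± 0.13 (limma, adjusted p = 7.64e-05), and the first set gave 8.50, 6.82 and 6.45. SLC2A1 was at 9.05 and 9.03, then 8.18 and 8.22, then 8.15 and 7.66, a fall of 1.13 ± 0.14 (limma, adjusted p = 0.0014), with 8.90, 8.63 and 7.89 in the first set. At 2 libraries against 2, 59.9% of all genes had D29 and D21 values that did not overlap, so separation of that kind is common here.

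The other nutrient carriers followed in part. SLC16A3, the lactate exporter MCT4, fell by 0.98 ± 0.11 (limma, adjusted p = 0.00098), and SLC2A3, a second glucose carrier, by 0.70 (limma, adjusted p = 0.00815). SLC7A11 fell by 0.55 (limma, adjusted p = 0.034) but not without any one of the D21 and D29 libraries (limma, adjusted p = 0.0703 to 0.155). SLC3A2 was level, between 6.86 and 7.04 in all 6 libraries, and SLC7A5 differed by 0.32 (limma, adjusted p = 0.0765; 0.0154 with the replicate number as a block). Summed over the list, nutrient uptake carriers stood at 1442 and 1534 CPM at D21, 875 and 886 CPM at D25 and 800 and 673 CPM at D29.

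Of 18 neural carriers 11 rose, 2 fell (SLC6A3 and the serotonin carrier SLC6A4) and 5 did not pass, with a median of 0.80, and 10 of 11 called genes with a row had the same direction in the first set. SLC17A6 was at 1.69 and 1.57 at D21, 3.02 and 3.17 at D25 and 3.75 and 4.48 at D29. The days were apart and the rise was 2.48 ± 0.23 (limma, adjusted p = 0.000362), or 5.58 times in CPM + 1. In the first set the level was already 3.58 at D21 and 3.93 at D29. SLC6A17, a vesicular amino acid carrier, rose by 2.16 ± 0.18 (limma, adjusted p = 0.000243), from 0.27 and 0.17 to 2.15 and 2.60.

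Transmitter carriers of smaller change included both directions. SLC7A14, a lysosomal carrier of neurons, rose by 1.29 ± 0.14 (limma, adjusted p = 0.000714). SLC1A2 rose by 1.26 ± 0.22 (limma, adjusted p = 0.00633; 0.0591 without D21 replicate 2). SLC1A3 rose by 0.90 (limma, adjusted p = 0.0159) but did not pass without either D21 library or without D29 replicate 2 (limma, adjusted p = 0.0829 to 0.0961). SLC6A3 fell by 1.27 ± 0.32 (limma, adjusted p = 0.0277), from 2.73 and 2.67 to 1.47 and 1.38, and from 4.21 to 1.37 in the first set, and its call was lost without any one of the D21 and D29 libraries (limma, adjusted p = 0.0534 to 0.138). SLC17A7 differed by 0.68 (limma, adjusted p = 0.0663) and passed without D25 replicate 1 or 2 (limma, adjusted p = 0.0427 and 0.0407), with the replicate block, at a mean CPM of at least 1 (limma, adjusted p = 0.0339 and 0.0372) and in edgeR (adjusted p = 0.0254). SLC12A5 was level, at 2.96 and 2.98 at D21 and 2.81 and 3.04 at D29.

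Members named for other classes also changed with day. SLC9A9 was at 2.51 and 2.59, then 3.53 and 3.63, then 4.01 and 4.27, a rise of 1.59 ± 0.13 (limma, adjusted p = 0.000267), and in the first set it was at 3.94, 4.53 and 4.49. SLC5A7 rose by 0.996 ± 0.15 (limma, adjusted p = 0.00335), from 5.05 and 4.82 to 5.68 and 6.17. SLC7A3, a cationic amino acid carrier, rose by 1.14 ± 0.19 (limma, adjusted p = 0.005). SLC22A10 rose by 0.57 (limma, adjusted p = 0.0407) from values under 0.4, but did not pass without a variance trend (limma, adjusted p = 0.0507). Its call was also lost without either D21 library or D29 replicate 2, at differences of 0.44 to 0.59. In the first set its D29 level was below D21 by 0.12. SLC2A6, a lysosomal glucose carrier, differed by 0.63 (limma, adjusted p = 0.065) and passed in edgeR and DESeq2 (adjusted p = 0.0227 and 0.0177). In limma it also passed with the replicate block, at a mean CPM of at least 1, without the added 1 and without D29 replicate 1 (adjusted p = 0.0119 to 0.038). SLC9A5 differed by 0.26 and SLC2A12, a glucose carrier, by 0.26, and neither passed. SLC6A6, SLC9A3R2 and SLC16A12 did not pass at -0.08, -0.59 and 0.33, and SLC6A6 and SLC9A3R2 passed without D29 replicate 1, where they fell by 0.45 and 0.93 (limma, adjusted p = 0.0247 and 0.000412). SLC9A3R2 also passed in edgeR (adjusted p = 0.0437) and, in limma, with median centring, at a mean CPM of at least 1 and without the added 1 (adjusted p = 0.0147 to 0.0472).

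**Figure D3:**
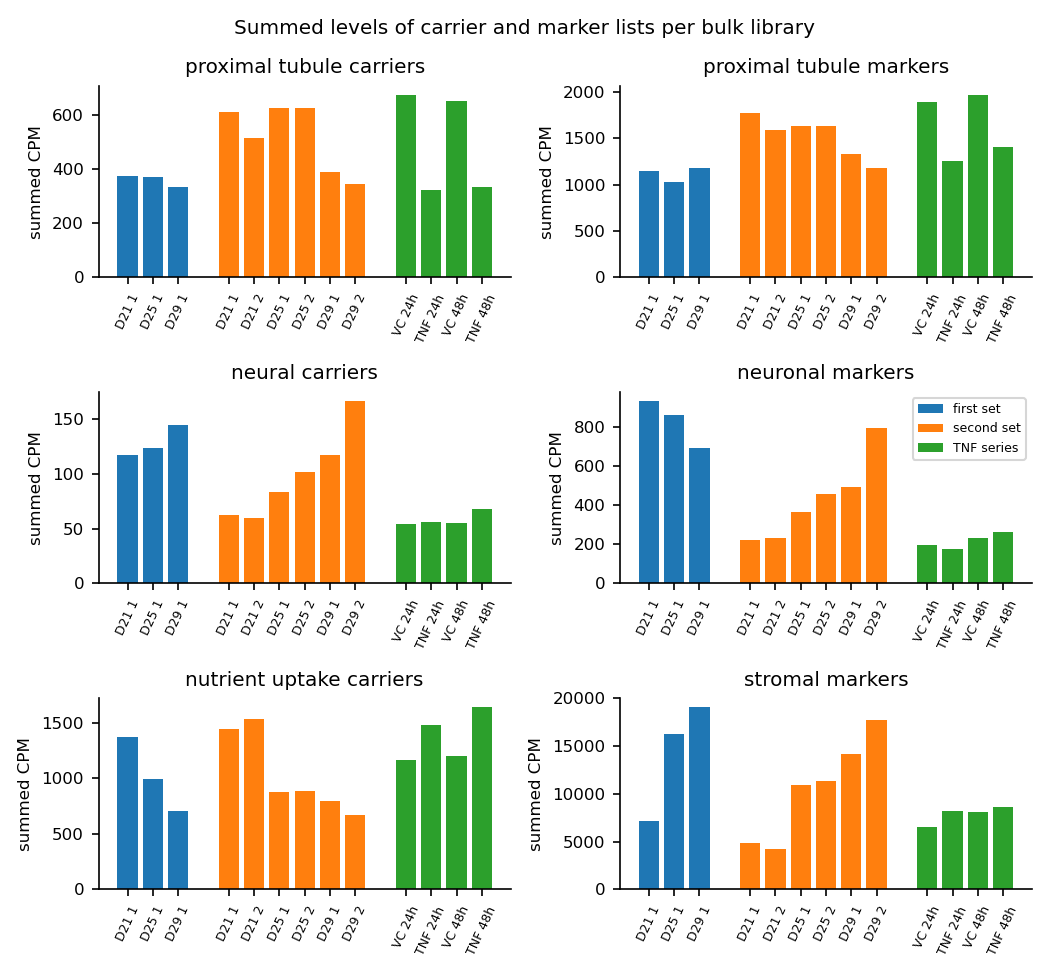
Summed CPM of 3 carrier lists (left) and of 3 lists of cell type markers (right) in each bulk library, as bars that start at 0, coloured by table. Proximal tubule carriers stand at 608 and 512 CPM at D21 and at 389 and 345 CPM at D29 of the second set, and at 671 and 651 CPM in the VC libraries against 324 and 332 CPM in the TNFα libraries. Neuronal markers rise by day in the second set only.

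Markers of several cell types moved with these lists, and fewer cells of a type and less RNA per cell cannot be told apart in bulk samples. Of 11 proximal tubule markers, 6 fell and 1 rose between D21 and D29, with sums of 1772 and 1588 CPM at D21 and 1333 and 1178 CPM at D29, while in the first set the sum was 1144 CPM at D21 and 1180 CPM at D29. Of 8 podocyte markers 6 fell and none rose, and of 9 stromal markers 8 rose and none fell, with sums of 4817 and 4219 CPM at D21 and 14167 and 17703 CPM at D29. Of 9 neuronal markers 8 rose in the second set, from 220 and 230 CPM to 493 and 798 CPM. In the first set the summed neuronal markers went from 934 to 695 CPM, while the summed neural carriers went from 117 to 145 CPM. The part of these shifts in the carrier values was not tested.

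TNFα was compared with VC in bulk spheroids to see which transport genes respond to this cytokine. With the 24 h and 48 h pairs as the replicates and time as a term, 64 of 128 members passed (limma, adjusted p under 0.05 over 21093 genes), against 19.3% of all genes, and 22 rose (8.42% of all genes) while 42 fell (10.8%). This fit had 1 library per time and treatment and so no replicate cultures. Its SE and p-values reflect how alike the 24 h and 48 h differences were, with the spread pooled over genes. The median difference was -0.09 over the members and -0.03 over all genes. DESeq2 called 47 members and edgeR 66, and without the time term 32 passed. Of 27 proximal tubule carriers tested 21 fell, 2 rose (SLC16A9 and SLC13A3) and 4 did not pass, with a median of -0.70. The median was -0.73 at 24 h and -0.58 at 48 h. Summed proximal tubule carriers stood at 671 and 651 CPM in VC at 24 h and 48 h and at 324 and 332 CPM in TNFα.

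Phosphate carriers fell together, with 3 of 3 called. SLC34A1 was at 7.89 and 7.93 in the VC libraries and at 5.35 and 5.26 in the TNFα libraries. The fall of 2.60 ± 0.06 (limma, adjusted p = 1.3e-14), or 6.08 times in CPM + 1, was the widest of the members. SLC34A3 was at 2.77 and 2.50 in VC and at 1.44 and 1.40 in TNFα, a fall of 1.21 ± 0.12 (limma, adjusted p = 1.1e-06). SLC34A2 fell by 0.59 ± 0.12 (limma, adjusted p = 0.00145; 0.0691 without the time term). The scaffold SLC9A3R1, which holds SLC34A1 in the brush border, fell by 0.93 ± 0.06 (limma, adjusted p = 4.05e-09), and SLC9A3R2 by 0.70.

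Sodium-coupled carriers of the SLC5A family fell in 5 of 8 tested members and rose in 1, SLC5A7. SLC5A8 was at 4.75 and 4.38 in VC and at 2.48 and 2.89 in TNFα, a fall of 1.88 ± 0.14 (limma, adjusted p = 1.97e-08), or 3.69 times in CPM + 1. SLC5A12 was at 2.41 and 2.56 in VC and at 0.99 and 1.21 in TNFα, a fall of 1.39 ± 0.12 (limma, adjusted p = 1.44e-07). SLC5A11 fell by 1.38 ± 0.11 (limma, adjusted p = 7.47e-08), from 1.83 and 1.76 to 0.48 and 0.35. SLC5A2 fell by 0.47 (limma, adjusted p = 0.00853), from 1.70 and 1.69 to 1.28 and 1.17, but not without the time term or in DESeq2 (adjusted p = 0.0906 and 0.342). SLC13A1 was at 2.89 and 2.73 in VC and at 2.26 and 2.50 in TNFα, a fall of 0.43 (limma, adjusted p = 0.0232) that also did not pass without the time term or in DESeq2 (adjusted p = 0.207 and 0.271).

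SLC47A1, the organic cation exporter, was at 3.71 and 3.54 in VC and at 1.82 and 2.26 in TNFα, a fall of 1.58 ± 0.14 (limma, adjusted p = 1.47e-07). SLC22A8 fell by 1.38 ± 0.12 (limma, adjusted p = 1.27e-07), from 2.12 and 2.27 to 0.76 and 0.88. SLC17A1 fell by 0.60 ± 0.12 (limma, adjusted p = 0.00136; 0.0728 without the time term). SLC22A2 was level, at 1.17 and 1.06 in VC and 1.01 and 1.02 in TNFα, and SLC22A6 was not analysed in this series. Over 18 tested SLC22A members, 6 fell and 2 rose, and SLC22A3, an organic cation carrier of many tissues, rose by 0.92 ± 0.09 (limma, adjusted p = 1.13e-06).

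Among amino acid, taurine and proton carriers, SLC6A13 was at 5.71 and 5.75 in VC and at 4.63 and 4.78 in TNFα, a fall of 1.03 ± 0.08 (limma, adjusted p = 2.04e-08). SLC3A1 fell by 0.77 (limma, adjusted p = 0.000113) and its partner SLC7A9 by 0.69 (limma, adjusted p = 0.000676; 0.0538 without the time term). SLC7A8 fell by 0.74 ± 0.06 (limma, adjusted p = 1.41e-07), SLC7A7 by 0.45 (limma, adjusted p = 0.00229; 0.0883 without the time term) and SLC1A1 by 0.41 (limma, adjusted p = 0.00864; 0.181 without it and 0.081 in DESeq2). SLC9A3 was at 2.12 and 1.99 in VC and at 0.81 and 1.15 in TNFα, a fall of 1.08 ± 0.13 (limma, adjusted p = 9.55e-06).

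Some members outside the proximal list also fell. SLC6A6, highest in podocyte-like cells, was at 7.17 and 6.79 in VC and at 5.97 and 5.68 in TNFα, a fall of 1.15 ± 0.07 (limma, adjusted p = 6.98e-10). SLC16A4 fell by 1.12 ± 0.09 (limma, adjusted p = 7.57e-08). SLC12A1 was at 5.34 and 4.72 in VC and at 4.50 and 4.28 in TNFα, a fall of 0.63 (limma, adjusted p = 9.27e-05; 0.133 without the time term). SLC4A4 was level, at 5.76 and 5.46 in VC and 5.55 and 5.60 in TNFα (difference -0.04, limma, adjusted p = 0.831), as was SLC16A12 at -0.05.

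**Figure D4:**
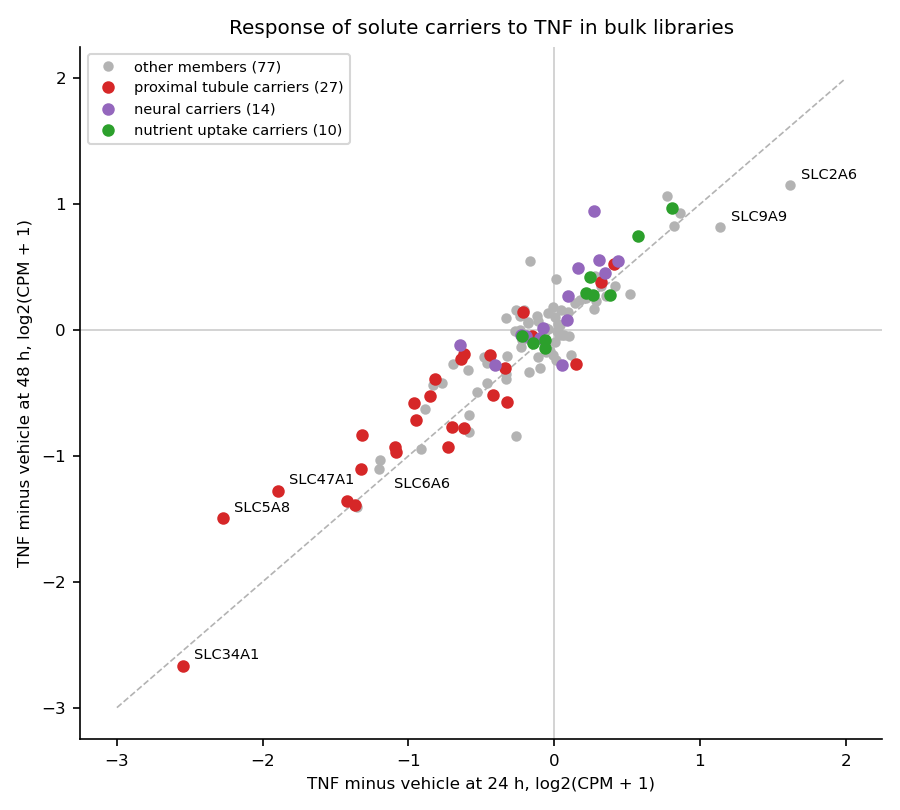
Difference between TNFα and VC at 24 h (horizontal) and at 48 h (vertical), in log2(CPM + 1), for the 128 members tested, coloured by list, with a dashed line of equality. SLC34A1 is the lowest point at -2.54 and -2.67, SLC2A6 is farthest right at 1.62 and 1.15, and the nutrient uptake carriers lie near or above 0.

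Among the members that rose with TNFα, SLC2A6 was at 2.63 and 2.59 in VC and at 4.25 and 3.74 in TNFα. The rise was 1.39 ± 0.12 (limma, adjusted p = 1.7e-07), or 2.61 times in CPM + 1. SLC9A9 rose by 0.98 ± 0.11 (limma, adjusted p = 5.63e-06) and SLC5A7 by 0.90 ± 0.07 (limma, adjusted p = 6.4e-08). Of 10 nutrient uptake carriers 6 rose and none fell, with a median of 0.26. SLC2A1 was at 8.55 and 8.76 in VC and at 9.36 and 9.72 in TNFα, a rise of 0.89 ± 0.06 (limma, adjusted p = 1.49e-08), or 1.85 times, and SLC7A11 rose by 0.66 ± 0.11 (limma, adjusted p = 0.000344). SLC7A5 rose by 0.27 (limma, adjusted p = 0.0179; 0.206 without the time term and 0.0586 in DESeq2). SLC16A1 and SLC3A2 did not pass, at -0.13 and -0.10.

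Among 14 neural carriers 4 rose and 2 fell. SLC1A3 rose by 0.61 (limma, adjusted p = 0.00476; 0.138 without the time term), SLC12A5 by 0.43 and SLC17A7 by 0.40 (limma, adjusted p = 0.0152 and 0.0224; 0.113 and 0.385 in DESeq2). SLC1A2 and SLC6A3 fell by 0.38 and 0.34 (limma, adjusted p = 0.0487 and 0.0473), and neither passed in DESeq2 (adjusted p = 0.348 and 0.521) or without the time term (adjusted p = 0.321 and 0.767). SLC17A6, SLC6A17 and SLC7A14 did not pass, at -0.13, -0.11 and 0.18. The same held for SLC7A3 at -0.16, SLC4A11 at -0.06, SLC22A10 at -0.11, SLC2A12 at 0.24 and SLC9A5 at 0.31 (limma, adjusted p = 0.0585). SLC9A5 passed in edgeR (adjusted p = 0.0137) and, in limma, with median centring, at a mean CPM of at least 1 and without the added 1 (adjusted p = 0.0305 to 0.0403). SLC13A3 rose by 0.35 (limma, adjusted p = 0.0105; 0.143 without the time term) and SLC2A2 was not analysed in this series.

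Marker genes moved with TNFα too. Of 11 proximal tubule markers 9 fell and 1 rose, from sums of 1885 and 1964 CPM in VC to 1258 and 1406 CPM in TNFα, and all 8 podocyte markers fell, from 7045 and 6541 CPM to 4299 and 3187 CPM. Stromal markers stood at 6568 and 8082 CPM in VC and 8216 and 8578 CPM in TNFα. The summed proximal tubule carriers fell to 324 from 671 CPM at 24 h while the summed markers went to 1258 from 1885 CPM. SLC34A1, the widest fall of the members, weighs heavily in the carrier sum. It had 12857 of 54299682 reads in VC and 2090 of 52553823 reads in TNFα at 24 h. The carrier sum without it was not computed, so the 2 falls were not ranked for the list as a whole. Whether the spheroids held fewer tubule cells was not tested.

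In single cells of the proximal tubule-like class, summed proximal tubule carriers were at 258 CPM (251 to 265) in VC and 158 CPM (152 to 164) in TNFα. The ratio was 0.611 (0.582 to 0.641), and the other values of this paragraph are also of this class. With 1 library per condition there is no replicate check, and the intervals compare these libraries and not the conditions. SLC34A1 was at 49.3 CPM in VC and 9.62 CPM in TNFα, a ratio of 0.20 (0.16 to 0.23), and SLC47A1, SLC22A8 and SLC5A8 had ratios of 0.21 (0.11 to 0.39), 0.23 (0.09 to 0.52) and 0.25 (0.18 to 0.34). SLC5A12 was at 0.32 (0.09 to 0.89, from 18 and 5 UMIs), and SLC5A11 had 20 UMIs in VC and none in TNFα, where 3 UMIs would be 0.19 CPM. SLC22A6 had 15 UMIs in VC and 2 in TNFα.

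In the same proximal tubule-like cells, the other named members that follow had ratios nearer to 1, with no clear split by substrate. SLC3A1 was at 0.44 (0.38 to 0.51), SLC34A3 at 0.45 (0.33 to 0.61), SLC6A13 at 0.508 (0.425 to 0.607), SLC34A2 at 0.58 (0.37 to 0.91) and SLC1A1 at 0.59 (0.45 to 0.77). SLC16A12, SLC16A4 and SLC12A1 were at 0.60, 0.67 and 0.67, and SLC4A4 was at 0.750 (0.665 to 0.845). The intervals of SLC13A1 (0.92), SLC7A7 (0.93), SLC7A8 (1.13), SLC7A9 (0.80), SLC17A1 (0.68) and SLC13A3 (1.03) hold 1. Among 16 listed genes with at least 50 UMIs over both libraries, 8 had an interval below 1, 1 above 1 (SLC16A9, at 1.35) and 7 holding 1, beside 23, 17 and 44 of all 84 members with that many UMIs.

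**Figure D5:**
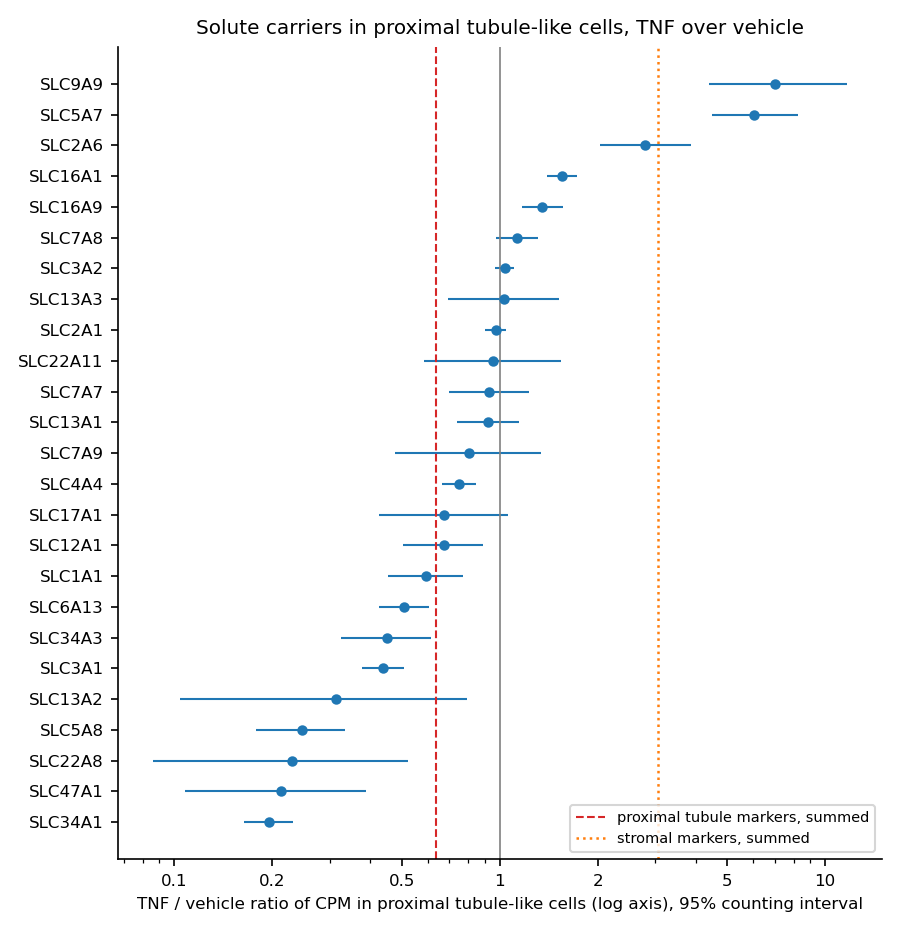
Ratio of TNFα to VC in proximal tubule-like cells for 25 members, on a log axis, with 95% counting intervals and a line at 1. The dashed line is the ratio of the summed proximal tubule markers (0.638) and the dotted line that of the summed stromal markers (3.05), and SLC34A1, SLC47A1, SLC22A8 and SLC5A8 lie at 0.20 to 0.25.

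Markers moved in the same class. The summed proximal tubule markers were at 2537 CPM in VC and 1619 CPM in TNFα, a ratio of 0.638. Sums weigh genes by level. APOE and FXYD2 held 945 and 798 CPM of the VC sum, and single markers had ratios from 0.25 (ANPEP) to 1.42 (CDH6). The summed carriers had a ratio of 0.611, and the median ratio of the 16 listed carriers with at least 50 UMIs was 0.713. Summed stromal markers in the same cells were at 357 and 1089 CPM (3.05), and summed podocyte markers at 180 and 567 CPM (3.15). The members with the highest ratios in proximal tubule-like cells were SLC9A9 at 6.99 (4.39 to 11.7), SLC5A7 at 6.04 (4.50 to 8.23) and SLC2A6 at 2.79 (2.03 to 3.88). SLC9A9 and SLC5A7 were highest in stromal-like cells of the VC library, where their ratios were 1.10 (0.97 to 1.26) and 0.94 (0.87 to 1.02). Both lay above the ratio of the summed stromal markers in stromal-like cells, 0.648 (7625 CPM in VC and 4943 CPM in TNFα). Each named class had lower sums of its own markers in the TNFα library. The lowest such ratio was 0.53 (podocyte-like) and the highest was 0.68 (neural progenitor or glial-like). In podocyte-like cells SLC5A7 had a ratio of 7.55, with own markers at 0.53 and stromal markers at 1.44. The part of RNA from other cells in these ratios was not tested.

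Ratios of some members differed between classes, and SLC2A1 also gave different values in the 2 assays. SLC2A1 had a ratio of 0.97 (0.90 to 1.05) in proximal tubule-like, 0.89 (0.84 to 0.94) in podocyte-like and 1.07 (1.04 to 1.11) over all cells of the library. Its rise in bulk spheroids was 1.85 times. The bulk value is in CPM + 1, over 24 h and 48 h, from spheroids of day 25. The single-cell ratios are in CPM, at 24 h, from whole wells of D24, so the 2 measures are not alike. SLC2A6 and SLC22A3 rose in bulk as well. SLC2A6 had ratios of 2.33 (1.93 to 2.82) in stromal-like, 4.52 in podocyte-like and 0.86 (0.75 to 0.98) in neuronal-like cells. SLC22A3 had a ratio of 4.43 (3.46 to 5.72) in stromal-like and 2.55 (1.88 to 3.48) in proximal tubule-like cells. SLC16A1 was at 1.55 (1.40 to 1.72) in proximal tubule-like and 0.69 (0.65 to 0.73) in podocyte-like cells.

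Several carriers named for other classes were also lower in that class of the TNFα library. All of them but SLC6A3 were named for a high VC level in the class, a choice that favours ratios below 1. Of all members with at least 50 UMIs over both libraries, 22 of 66 had intervals above 1 and 18 below 1 in podocyte-like cells. The counts were 19 and 17 of 65 in neuronal-like and 10 and 6 of 38 in muscle-like cells. SLC6A6 in podocyte-like cells was at 60.5 CPM in VC and 17.8 CPM in TNFα, a ratio of 0.29 (0.26 to 0.33), below that of the summed podocyte markers (0.53). SLC9A3R2 and SLC7A8 in the same class were at 0.53 and 0.56. In neuronal-like cells, SLC17A6 was at 0.36 (0.31 to 0.42), SLC1A2 at 0.46, and SLC6A3 at 0.58, while the interval of SLC17A7 (0.68, 0.44 to 1.04) holds 1, beside 0.57 for the summed neuronal markers. SLC7A5 in muscle-like cells was at 0.43 (0.31 to 0.58), beside 0.54 for muscle markers.

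Genes that work with the carriers were read from a list of 30 pumps, channels, scaffolds, receptors and transcription factors. Of 29 tested between D21 and D29, 12 fell and 3 rose, and of 28 tested with TNFα 19 fell and 3 rose, with a median of -0.61. Over all genes, 18.4% passed in the first comparison and 19.3% in the second, in either direction. HNF4A, which drives proximal tubule genes, fell in both comparisons, by 1.78 between D21 and D29 and by 1.10 ± 0.08 with TNFα (limma, adjusted p = 1.04e-08). PDZK1, a brush border scaffold, fell by 1.05 with TNFα and CUBN, an endocytic receptor, by 1.09. LRP2, the partner of CUBN, fell by 1.46 with day and by 0.25 with TNFα. CLTRN, which carries SLC6A19 to the brush border, fell by 0.90 with TNFα. The sodium pump subunit ATP1B1 did not pass with TNFα, at 0.02. EMB, a partner of SLC16A carriers, rose by 0.96 with TNFα, while BSG, the partner of SLC16A1, fell by 0.19.

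Among the 69 members in no list, 18 fell and 11 rose between D21 and D29, with a median of -0.08, and 16 of 61 fell and 7 rose with TNFα. Of 13 carriers for pH and cell volume, 2 fell and 1 rose with day and 2 fell and 3 rose with TNFα, with medians of -0.06 and 0.01. Over all genes, 8.33% fell and 10.0% rose with day, and 10.8% fell and 8.42% rose with TNFα. The counts for pH and cell volume are small and were not tested against these shares. Of 7 antisense members 6 fell with day and SLC12A9-AS1 did not pass, and the widest falls were those of SLC12A5-AS1 at -0.81 and SLC9A3-AS1 at -0.78 (limma, adjusted p = 0.00917 and 0.000682), while in the first set SLC9A3-AS1 went from 6.81 to 7.13.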

How the data were processed

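Bulk RNA was measured in 13 libraries of isolated spheroids and single-cell RNA in 2 libraries of whole wells. The authors aligned bulk reads with STAR 2.7.8a to GRCh38, counted them with HTSeq and deposited log2 values, log2(CPM + 1), computed with 0.5 added to each count. Whole reads were recovered from these values (100% within 0.001 of a whole number). The deposited single-cell values are UMI counts per gene and barcode, made by the authors with Cell Ranger.

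The 3 bulk tables were tested separately, since they were normalized apart. Days were compared within the second set and TNFα with time as a term, with limma 3.58.1 in R 4.3.3 (empirical Bayes with a trend, two-sided, Benjamini-Hochberg over all genes of a table). The edgeR 4.0.16 and DESeq2 1.42.0 tests on the recovered reads were alternatives. Cells with over 500 genes were clustered with scanpy 1.11.5 (30 components, Harmony alignment, Leiden resolution 0.25) without the members and without removing doublets. Ratios of UMIs have exact conditional intervals at 95%, which cover counting error only. The fits were tested on simulated data.

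Named genes were, for day and for TNFα, the 12 called members of widest change with the same direction in the other set or at both times, the 3 members per class with the highest ratio to the next class, and 23 tubule carriers whatever their values, 53 in all. A few of these and of the partner genes are not reported here. Other members and partner genes named as exceptions to a list's count were chosen after their values were seen. The members and lists were chosen with earlier results of these data known.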

Additional observations from a re-analysis of the deposited data

Results flagged for a closer look

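Of the 57 called members with a row in the first set, 42 kept their direction there, a count given without the share over all called genes. Among the genes chosen by the naming rule, 5 that were called between D21 and D29 in the second set differed in the opposite direction between the single libraries of the first set. The first-set difference between D29 and D21 was 0.47 for SLC34A1, 0.46 for SLC34A3, 0.12 for SLC22A8 and 0.0088 for SLC9A3, which fell in the second set, and -0.12 for SLC22A10, which rose there. The difference between the sets was not tested, and the first set has 1 library per day.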

How the results depend on the processing

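The count of members called between D21 and D29 (66) was 58 to 77 under other filters, scalings and tools, 23 by a rule of a log2 difference of at least 1 without a test, and 37 to 67 with 1 library left out. Between D21 and D25 (18) it was 28 with median centring, 7 by the fold rule and 2 to 27 with 1 library left out. There, 5 passed without D21 replicate 1, 3 without D21 replicate 2 and 2 without either D25 library. Between D25 and D29 (16) it was 25 without the added 1, 26 at a mean CPM of at least 1, 31 with median centring (10 higher, 21 lower), 31 in edgeR (11 higher, 20 lower), 26 in DESeq2 (8 higher, 18 lower), 10 without a variance trend and 9 by the fold rule. With 1 library left out it was 0 to 38, with 38 when D29 replicate 1 was absent, 4 when D29 replicate 2 was, and 5 when either D21 library was. With the replicate number as a block the 3 counts were 73, 26 and 28. Deviations of replicate 1 from the day mean correlated weakly between days (0.14, 0.076 and 0.27). The labels number the libraries of each day alike, and whether a number marks a shared origin could not be settled from these values. With TNFα (64) the count was 47 to 68 under other filters, scalings and tools, 32 without the time term, and 10 by the fold rule at both times. Calls over all genes shifted as well. Between D25 and D29, 1233 of 27650 genes passed with median centring, 1336 in edgeR, 1278 in DESeq2 and 209 without a variance trend. With TNFα, 1310 of 21093 genes passed without the time term. The cause of these shifts was not tested.

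For the named genes, 578 of 645 repeats by day and 254 of 283 with TNFα kept their direction and their side of the threshold, 40 and 25 lost the call, 27 and 4 gained one, and none reversed. In single cells, 16 proximal tubule carriers were highest in proximal tubule-like cells under each alternative except without the highest doublet scores (15 of 23). The ratio of the summed carriers in proximal tubule-like cells was 0.608 to 0.617, and 0.676 without alignment of the libraries. The automatic doublet cut marked 0 cells, so removal by that cut was not run, and leaving out the 5% of cells with the highest scores was chosen after seeing the data. With 1 single-cell library per condition and 2 libraries per day, carriers near the floor, such as SLC22A6, SLC2A2 and SLC22A2, are limited by depth.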
